A study of Caenorhabditis elegans with 2 samples.

Results

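Homeobox genes outside the Hox cluster were examined for binding by NFYA-1 in the nematode Caenorhabditis elegans. The 77 members are the nuclear protein-coding genes whose names begin with ceh, without ceh-13 and ceh-22 (61 genes), together with lim-4, lim-6, lim-7, lin-11, mec-3, ttx-1, ttx-3, unc-4, unc-30, unc-42, unc-86, vab-3, vab-7, pal-1, cog-1 and alr-1. They are 77 of 19973 nuclear protein-coding genes in the annotation. Chromatin immunoprecipitation sequencing was done on whole hermaphrodite larvae of the L3 stage from strain OP404, whose genotype is unc-119(tm4063) III; wgIs404. This integrated transgene supplies NFYA-1 tagged with GFP and FLAG at its C terminus, and an anti-GFP antibody was used to pull down the sonicated chromatin. All animals carried both alleles, and the 2 biological replicates form 1 group, so there was no comparison between conditions and no p-value was computed. Peaks had been called against a control by the authors, and a library without the tag, or for another factor, was not analysed here. Regions bound by NFYA-1 and regions that precipitate with many tagged factors therefore cannot be told apart. Whole animals were pooled, so the cells in which a gene was bound are unknown, and peak lists hold no expression with which the stage or tissue could be checked.

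Homeobox genes encode transcription factors with a homeodomain, a DNA-binding fold that commonly recognises TAATTA-like sites. In the worm, many of them set the identity of single neuron types, while others pattern the body axis, the head, the pharynx, the vulva or the gonad. NF-Y is a trimeric transcription factor whose A subunit makes the sequence-specific contact with CCAAT, a pentamer that in many animals lies a short way upstream of transcription starts. NFYA-1 is one of the worm's A subunits, and worm NF-Y is known to regulate the Hox gene egl-5.

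Sequences at some of the promoter summits are printed here, 8 of them chosen because they hold CCAAT. They do not show which bases NFYA-1 contacted. A summit is the position of the highest signal within a peak, and the lines give it with 50 bp on either side, read 5′ to 3′ along the gene's strand, with CCAAT on either strand in capitals (ATTGG where it lies on the other strand). They were read from the RefSeq copy of WBcel235, the assembly of ce11. The first 8 are promoter summits with CCAAT, and summits in a 5′ UTR are not shown.
ceh-93 (chrX:388862-388962, minus strand): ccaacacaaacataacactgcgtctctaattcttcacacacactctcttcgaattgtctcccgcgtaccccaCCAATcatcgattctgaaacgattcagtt
ceh-27 (chrV:11665130-11665230, minus strand): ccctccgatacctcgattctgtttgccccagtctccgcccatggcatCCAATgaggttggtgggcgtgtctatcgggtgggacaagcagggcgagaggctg
unc-86 (chrIII:8216378-8216478, minus strand): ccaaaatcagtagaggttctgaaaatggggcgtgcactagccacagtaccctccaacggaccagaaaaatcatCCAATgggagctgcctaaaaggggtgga
vab-7 (chrIII:10920210-10920310, plus strand): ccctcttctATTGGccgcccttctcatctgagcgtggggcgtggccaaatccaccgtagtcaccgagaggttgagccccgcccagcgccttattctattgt
unc-42 (chrV:9769469-9769569, minus strand): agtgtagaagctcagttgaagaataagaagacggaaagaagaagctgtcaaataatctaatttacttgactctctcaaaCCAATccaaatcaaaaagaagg
ceh-14 (chrX:7533116-7533216, minus strand): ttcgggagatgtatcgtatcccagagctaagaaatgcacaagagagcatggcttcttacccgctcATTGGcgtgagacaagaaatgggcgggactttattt
vab-3 (chrX:10499745-10499845, plus strand): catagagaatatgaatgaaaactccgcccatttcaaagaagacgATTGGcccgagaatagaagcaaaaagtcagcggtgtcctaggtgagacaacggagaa
mec-3 (chrIV:10461884-10461984, minus strand): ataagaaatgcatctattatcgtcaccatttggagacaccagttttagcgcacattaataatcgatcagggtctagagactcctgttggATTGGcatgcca
The next 2 are strong promoter summits upstream of a start without CCAAT, and they show the C-rich runs described later.
ceh-32 (chrV:11705544-11705644, minus strand): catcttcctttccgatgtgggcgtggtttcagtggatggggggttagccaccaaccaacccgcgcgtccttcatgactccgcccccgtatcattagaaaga
ceh-39 (chrX:1856310-1856410, minus strand): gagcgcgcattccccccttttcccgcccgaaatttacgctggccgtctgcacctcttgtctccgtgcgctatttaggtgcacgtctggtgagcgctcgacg

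An NFYA-1 peak stood at the promoter of 22 of the 77 homeobox genes (28.6%), against 3122 of all 19973 protein-coding genes (15.6%). A promoter window here runs from 500 bp upstream to 200 bp downstream of the annotated gene start, and the peaks counted are those the authors kept at their threshold on the irreproducible discovery rate (IDR) with the summit in the window. The 95% Wilson interval of the members' share was 19.7% to 39.5%, and it covers counting error over genes only. With CCAAT within 50 bp of the summit as a further condition, 13 members (16.9%, interval 10.1% to 26.8%) and 585 of all genes (2.93%) were counted. In the looser pooled list of 30000 regions, 35 members (45.5%) and 6014 of all genes (30.1%) had a summit in the window. Of the genes with such a region, 62.9% of the members and 51.9% of all genes also had an IDR peak there. The members and the list of classes were chosen with earlier results of these data known, so these shares are a description.

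The pair of POU genes with a promoter peak both carried CCAAT at the summit. POU factors combine a homeodomain with a second DNA-binding domain. ceh-6, needed for the excretory canal and for rectal cell fate, had the strongest promoter peak of any member, with a signal of 849 and rank 100 among the 6932 IDR peaks. Its summit lay 136 bp downstream of the start, in the 5′ UTR, and ranked 104 in replicate 1 and 105 in replicate 2. unc-86, which specifies many sensory neurons and interneurons, ranked 2359 with a signal of 169, and its summit lay 92 bp upstream of the start (2293 in replicate 1 and 2757 in replicate 2). Both replicates thus placed ceh-6 far above unc-86. The third POU gene, ceh-18, which acts in the gonadal sheath, had no promoter peak but a weak one in an intron, at rank 5569.

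Of the 7 LIM genes, 5 had a promoter peak, and 3 of these had CCAAT at the summit. LIM-homeodomain factors carry LIM domains for protein contacts beside the homeodomain. lim-7, a relative of Islet expressed in the gonadal sheath, was the strongest, with a signal of 350.0 and rank 724 (826 in replicate 1 and 603 in replicate 2). It had no CCAAT within 50 bp of its summit, which lay 43 bp upstream of the start. lin-11, needed for vulval development, also lacked CCAAT at its promoter summit, which ranked 1751 and lay 23 bp upstream. The 50 bp on either side of it held 5 matches to GAGAGA, overlapping ones counted. The 100 bp on either side of it shared a run of at least 20 bp with another peak, which makes its value uncertain. Its ranks were 2403 in replicate 1 and 1223 in replicate 2, the widest ratio among the 22. lim-4, which specifies the AWB olfactory neurons, ranked 2337 (2183 and 2694 in replicates 1 and 2) with its summit 77 bp downstream of the start. ceh-14, which acts in the AFD thermosensory neurons, ranked 3647 (4714 and 2860). Its summit, 434 bp upstream, was the farthest from a start among the 22. mec-3, which specifies the touch receptor neurons, was near the bottom of the list at rank 6254 (6825 and 6183), with a signal of 60.8. The LIM genes lim-6 and ttx-3 had no IDR peak at the promoter or inside the gene.

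The sine oculis and CUT genes with promoter peaks had no CCAAT at any summit. Sine oculis factors pattern anterior structures in animals, and ONECUT factors, which make up most of the worm's CUT genes, act broadly in neurons and in early development. ceh-38, a ONECUT gene, ranked 164 with a signal of 698, the second strongest of the members (131 in replicate 1 and 221 in replicate 2). Its summit, 50 bp downstream of its start in the 5′ UTR, also lay 276 bp upstream of the start of malt-1, so the peak cannot be assigned to either gene alone. ceh-39, a ONECUT gene that serves as an X-chromosome signal in sex determination, ranked 1567 (1814 and 1284). ceh-32, related to SIX3 and active in the head, ranked 1364 (1412 and 1398), while ceh-34, which specifies pharyngeal neurons, had the weakest of the 22 summits at rank 6359 (6684 and 6277). The summit of ceh-34 shared at least 20 bp with another peak. In all, 2 of 3 sine oculis genes and 2 of 6 CUT genes had a promoter peak, and ceh-33, ceh-21, ceh-41, ceh-48 and ceh-49 had none.

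Among the 12 paired or paired-like genes, 4 had a promoter peak, 3 of them with CCAAT. ceh-45, a goosecoid-like gene, ranked 1800 (1879 and 1770). unc-42, which sets the identity of command interneurons, ranked 2747 (3584 and 2254), and its summit, 128 bp upstream of the start, overlapped the noncoding gene F46B6.18. Its window was the poorest in G and C of the 22, at 34.7%. unc-30, the PITX relative that specifies GABAergic motor neurons, ranked 3001 (3252 and 2742) and had no CCAAT. vab-3, the worm PAX6 gene of head development, had a weak peak at its annotated gene start at rank 6118, with ranks of 5769 and 7199 in the replicates. With the starts of all its transcripts counted, its strongest promoter peak ranked 348, a peak inside the gene that is described further on.

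The 15 NK-like genes had 3 promoter peaks, and each had CCAAT at the summit. ceh-27 ranked 1735 (1763 and 1858), and its CCAAT was centred 1 bp from the summit. ceh-2, the empty spiracles relative that acts in pharyngeal neurons, ranked 2955 (3408 and 2569) and was the only one of the 22 with 2 CCAAT boxes within 50 bp of the summit. ceh-24, which acts in vulval and pharyngeal muscle, ranked 3549 (4092 and 3297), with its summit 122 bp downstream of the start. Of the 3 Hox-related genes, vab-7, the even-skipped relative of posterior patterning, ranked 2714 (2901 and 2593), with CCAAT. The 3 members assigned to the TALE class, ceh-20, ceh-40 and ceh-60, had no promoter peak and none inside the gene. This holds for members only. The naming rule leaves out the Iroquois gene irx-1 and the Meis relative unc-62, which had peaks and are described further on. TALE factors include the Pbx relatives that bind DNA beside Hox proteins.

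Of the 25 members not assigned to a class, 3 had a promoter peak, the lowest share of the groups with any. ceh-93 was the exception in strength, at rank 236 with a signal of 605 and CCAAT 24 bp from the summit. ceh-100 ranked 3779 (3564 and 4318), and its summit also lay 487 bp upstream of lips-15. ceh-74 ranked 5500 (6987 and 5011), with its summit in an intron of the neighbouring gene cest-2.3. The classes are small, and no difference between them was tested.

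**Figure D1:**
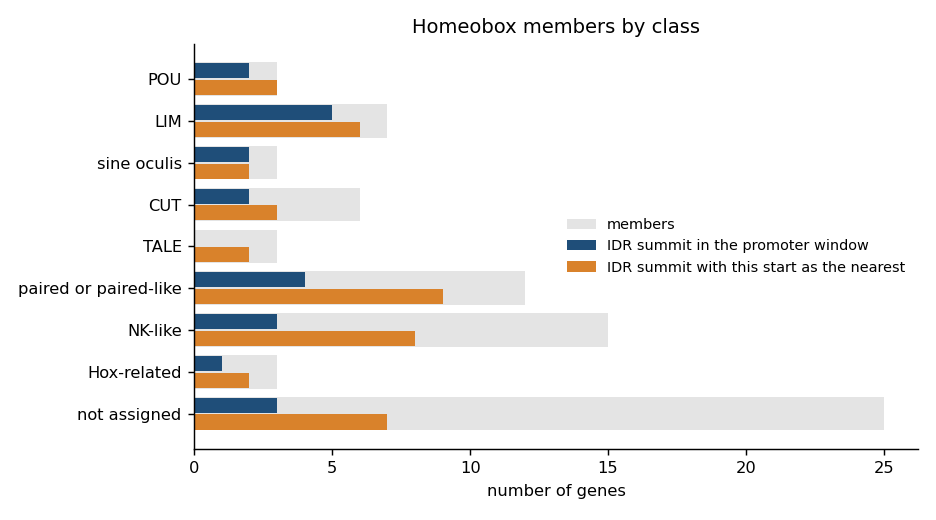
Number of homeobox genes in each class (grey bars), of those with an IDR summit in the promoter window (blue), and of those whose start is the nearest protein-coding start to an IDR summit at any distance (orange). LIM genes have 5 of 7 and unassigned genes 3 of 25 with a promoter-window summit. The TALE members have none in the window but 2 of 3 by the nearest start. Homeobox genes outside the naming rule are not drawn.

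The peaks at homeobox promoters were of middling strength for bound genes. Their median signal was 159.7, against 156 for all genes with a promoter peak and 121 for all IDR peaks, and their median rank was 2536.5, against 2607 for all genes with a promoter peak. The strongest of the 22 exceeded the weakest 14.3-fold. The 3 strongest had signals of 479, 432 and 352 in replicate 1 for ceh-6, ceh-38 and ceh-93, and of 368, 269 and 255 in replicate 2. All 22 had an overlapping region in the relaxed list of each replicate, against 97.9% of all genes with a promoter peak. For each of the 22 the ranks in the 2 replicates were within 2-fold of each other, without a share for all genes beside it. The IDR threshold keeps peaks that are reproducible between replicates, so neither figure is independent support for the members. Of the 22, 20 (90.9%) overlapped one of the 6932 strongest regions in both replicates, against 87.4% of all genes with a promoter peak. The exceptions were ceh-74, which fell short in replicate 1, and vab-3, which fell short in replicate 2.

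**Figure D2:**
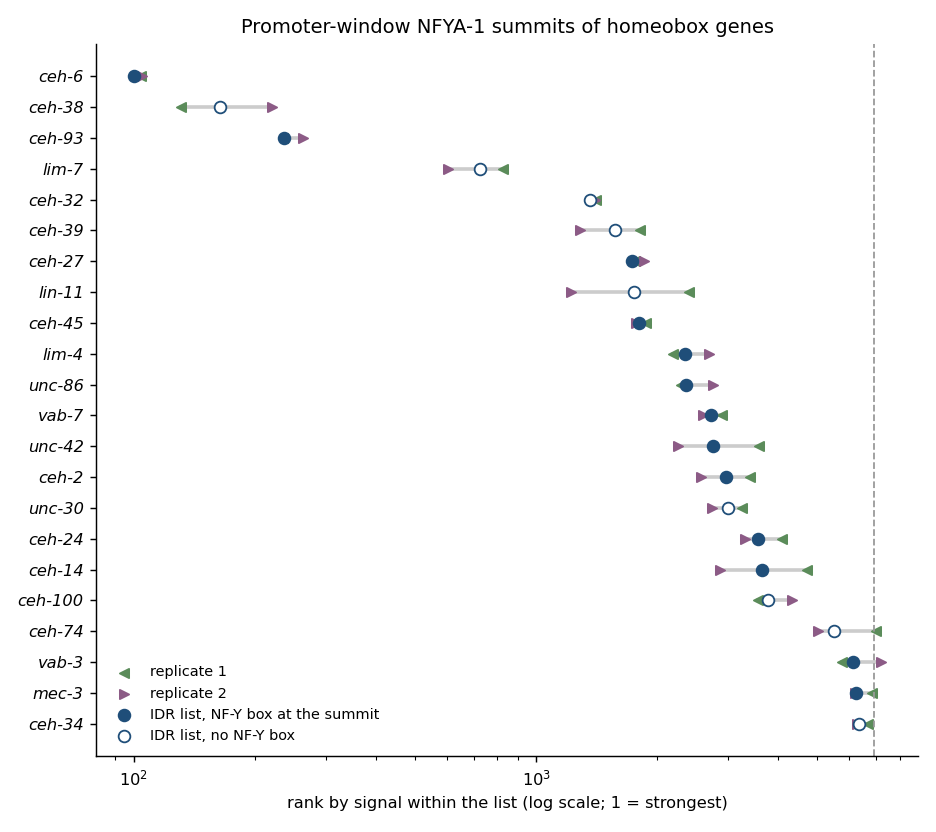
Rank by signal (log scale, 1 is the strongest) of the strongest promoter-window summit of 22 homeobox genes, in the IDR list (circles, filled where the NF-Y box CCAAT lies within 50 bp of the summit) and in the relaxed list of replicate 1 (left-pointing triangles) and replicate 2 (right-pointing triangles). The dashed line marks rank 6932, the length of the IDR list, which ceh-74 passes in replicate 1 and vab-3 in replicate 2.

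At the homeobox promoters, CCAAT was found at 13 of 22 strongest summits (59.1%), against 580 of 3122 strongest summits of all genes with a promoter peak (18.6%) and 27.6% of all IDR peaks. In windows of the same length placed 300 bp to the lower-coordinate and to the higher-coordinate side, 6 (27.3%) and 4 (18.2%) of the members' windows held it, against 18.6% and 18.3% for all genes with a promoter peak. The whole 700-bp promoter window did not differ in this way. CCAAT stood somewhere in the window of 61 of the 77 members (79.2%) and 77.8% of all genes, and within the members in 18 of 22 genes with a peak (81.8%) and 43 of 55 without one (78.2%). ceh-39, lin-11, ceh-74 and ceh-34 were the 4 genes with a peak and no CCAAT anywhere in the window.

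Most boxes lay close upstream of the start. There were 14 CCAAT boxes at the 13 summits, 9 on the gene's strand and 5 on the other. Their centres lay at a median of 23 bp from the summit, with 9 centres within 25 bp of it. Boxes were sought only within 50 bp of a summit, where even placement would give similar distances. These distances therefore do not show that boxes centre on summits. The 14 boxes ran from 417 bp upstream at ceh-14 to 150 bp downstream at ceh-24. Of the 11 upstream boxes, 10 lay within 150 bp of the start. Because of that search, positions of boxes from the start follow those of the summits. Box positions and strands for all genes are not given beside them. The summits of the 22 members had a median position of 81 bp upstream (-81), against -172 for all genes with a promoter peak. Summits lay upstream within 150 bp for 12 of the 22 (54.5%) and for 35.7% of all genes with a promoter peak. Of the genes with a promoter peak, 20 of the 22 members but 1758 of all 3122 had a window that overlaps no other gene's. Positions were not compared among such genes alone, so the part of gene arrangement in this contrast was not tested. Worm transcripts are often trans-spliced, so annotated starts may sit short of where transcription begins. By annotation, 14 of the 22 summits were intergenic, 4 in the gene's own 5′ UTR (ceh-6, ceh-38, lim-4 and unc-30), 2 in an intron (ceh-24 in its own) and 2 in a noncoding gene.

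**Figure D3:**
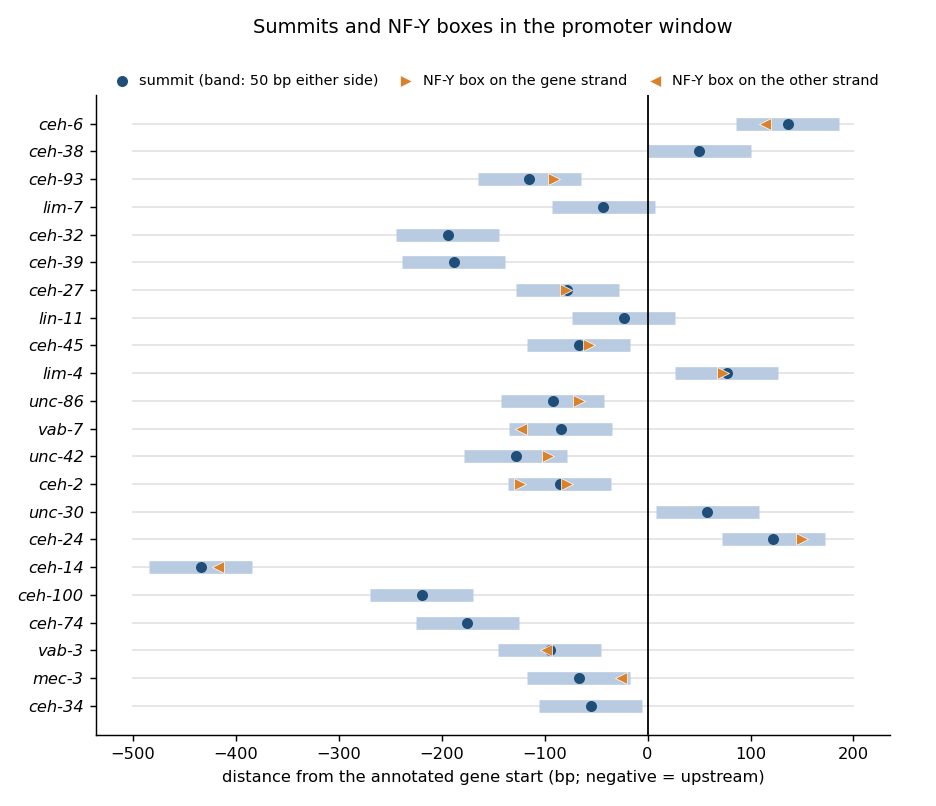
Position of the strongest promoter-window summit (dots, with a band of 50 bp either side) and of each NF-Y box, CCAAT, in that band (orange triangles pointing right on the gene's strand and left on the other), in bp from the annotated gene start, for 22 homeobox genes in order of rank. Of the 14 boxes, 10 lie upstream within 150 bp of the start.

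The longer NF-Y site was uncommon at these promoters. NF-Y sites are often described as CCAAT with a pair of purines before it and C or G and then a purine after it. This extended form occurred within 50 bp of the summit at 2 members (2.6% of the 77, ceh-6 and vab-3), against 88 of all genes (0.441%). Of the 22 strongest summits it was at 9.09%, against 2.75% for all genes with a promoter peak and 11.1% of all IDR peaks. Around the 14 boxes, the base just before was a purine in 8 and the one before that in 9, the base just after was C or G in 11, and the base after that was a purine in 11. The sites thus departed from the longer form more often on the 5′ side of CCAAT.

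A C-rich pentamer, CGCCC on either strand, recurred in the homeobox windows. It was chosen after the sequences were seen, and it is the core of sites bound by Sp and KLF family zinc-finger proteins in animals. It was present at 14 of the 22 summits (63.6%), against 17% for all genes with a promoter peak and 22.1% of all IDR peaks. In the members' side windows it was in 2 of 22 on the lower-coordinate side and in 0 of 22 on the other, against 4.2% and 4.0% for all genes with a promoter peak. ceh-27, lim-4 and vab-7 had 3 matches each. CCAAT and CGCCC occurred together at 9 of the 22 (40.9%), against 3.97% for all genes with a promoter peak and 10.7% of all IDR peaks. CCAAT alone was at 4 and CGCCC alone at 5, among them the printed windows of ceh-32 and ceh-39. The 4 with neither were ceh-38, ceh-100, ceh-74 and ceh-34.

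Base composition moved with these counts. The members' windows had a median of 51% G and C, against 46.5% both for all genes with a promoter peak and for all IDR peaks, and the side windows had 32.9%, 35.1% and 34.7%. Members' windows with CGCCC had a median of 57.4% and those without it 43.6%, and for all genes with a promoter peak these were 50.5% and 45.5%. The part of base composition in the CGCCC and CCAAT counts was not tested. GAGAGA was at 6 of the 22 (27.3%), against 23.4% for all genes with a promoter peak and 28.4% of all IDR peaks. TAATTA, a core that homeodomains themselves bind, was at 0 of the 22, a count that allows a share of up to 13.6% and so did not separate them from the 1.54% of all genes with a promoter peak.

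**Figure D4:**
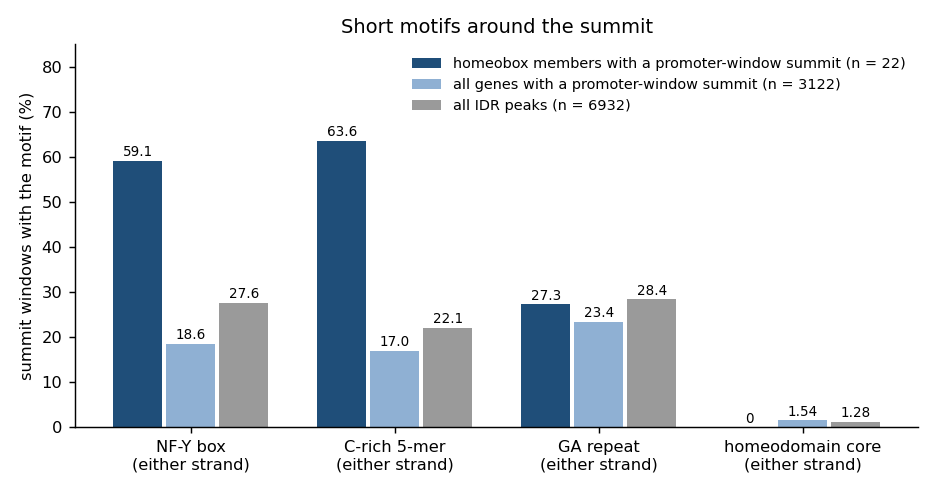
Share of summit windows (50 bp on either side) with each motif on either strand, at the strongest promoter-window summit of 22 homeobox genes, at that of all 3122 genes with one, and at all 6932 IDR peaks. The NF-Y box is CCAAT (59.1%, 18.6% and 27.6%), the C-rich 5-mer CGCCC (63.6%, 17% and 22.1%), the GA repeat GAGAGA (27.3%, 23.4% and 28.4%) and the homeodomain core TAATTA (0, 1.54% and 1.28%).

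NFYA-1 peaks also lay inside homeobox genes. An IDR summit fell between the gene's ends in 16 of the 77 (20.8%), against 1659 of all genes (8.31%), and 8 of these 16 had no promoter peak of their own. Counting only summits in no promoter window of any protein-coding gene, there were 12 summits in 10 members (13.0%), against 6.81% of all genes. Homeobox genes are long, with a median of 3306 bp against 2027 bp for all protein-coding genes, and the 16 had a median of 5159.5 bp. Per 100 kb of gene, all 18 inside summits came to 5.72, against 3.94 for all genes, and the 12 in no promoter window to 3.81, against 3.35. Of the 12, 11 lay in introns and 1, in ceh-8, in the 3′ UTR, and 7 had CCAAT, against 37.3% of the 2123 such summits of all genes.

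The strongest of these was in an intron of pal-1, the caudal relative that specifies posterior lineages. It ranked 155 with a signal of 715 (152 in replicate 1 and 162 in replicate 2), 1301 bp from the start, and CCAAT lay at the summit itself. vab-3 had one in an intron 5506 bp from its start at rank 348 (339 and 384) and another at 15149 bp at rank 1319 (1858 and 947), each with 2 boxes. The intron peak at 5506 bp had a signal of 514, against 62.3 in the window of the annotated vab-3 gene start. ceh-92 ranked 983 (1051 and 913) with 2 boxes, and the 100 bp on either side of its summit shared at least 20 bp with another peak. ttx-1, the Otx relative of the AFD neurons, had a peak at 2429 bp at rank 1148 (1216 and 1205), which also shared sequence, and one at 530 bp at rank 2093 (2304 and 1998), both with CCAAT. Of these, the pal-1 summit, both vab-3 summits and the ttx-1 summit at 2429 bp lay in the promoter window of another annotated transcript start of the same gene. The vab-3 summit at 5506 bp was on the outermost base of such a window. The other 6 genes were lin-11 (rank 1511), the Rx relative ceh-8 (2224), unc-42 (2580), the Otx relative ceh-37 (2882), the distal-less relative ceh-43 (4122) and ceh-18 (5569). ceh-37 alone of these 6 had CCAAT. ceh-88 also had a summit inside it, in its 3′ UTR at rank 3592, but this lay in the promoter window of another gene. The intron windows of pal-1 and vab-3 are printed because these were the strongest peaks, and they were chosen after the values were seen.
pal-1 (chrIII:4808225-4808325, minus strand): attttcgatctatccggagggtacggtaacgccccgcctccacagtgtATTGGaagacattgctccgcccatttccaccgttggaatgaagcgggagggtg
vab-3 intron (chrX:10505346-10505446, plus strand): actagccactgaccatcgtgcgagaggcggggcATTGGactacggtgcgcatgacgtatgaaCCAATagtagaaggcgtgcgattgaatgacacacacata

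**Figure D5:**
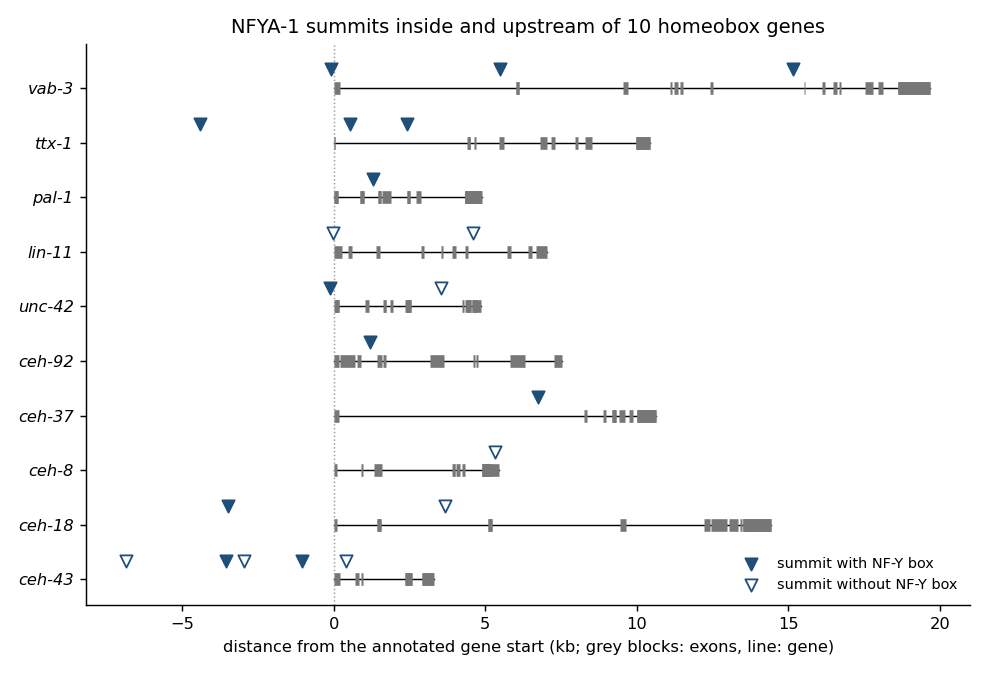
NFYA-1 IDR summits (triangles, filled where the NF-Y box CCAAT lies within 50 bp) at 10 homeobox genes, in kb from the annotated start, with exons as grey blocks and the gene as a line. vab-3 has a summit at its start and others at 5506 and 15149 bp inside it, and ceh-43 has 5 summits, 4 of them upstream of the start.

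More homeobox genes had a peak farther away. When each IDR summit was given to the nearest protein-coding start at any distance, an assignment added after the data were seen, 42 of the 77 members (54.5%) had at least 1, against 4851 of all genes (24.3%). The stretch of genome nearest to a start was longer for the members, with a median of 5511.5 bp against 3858.5 bp, and per 100 kb of it there were 9.73 summits, against 6.91 for all genes. Of the 54 summits, 32 lay in no promoter window, and 19 of these had CCAAT (59.4%), against 32.6% of 4372 such summits in all. The extended form was at 8 of the 32 (25%), against 15.8% of the 4372. Without peaks that share 20 bp with another, CCAAT was at 14 of 24 summits, against 27.4%, and the extended form at 4 of 24, against 7.69%.

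ceh-43, known for anterior patterning and dopaminergic neurons, had the most, with 5 summits. They lay 1045 bp (rank 2095), 2970 bp (6449), 3557 bp (1718) and 6835 bp (2606) upstream and 399 bp inside the gene. The strongest summit upstream and outside promoter windows was 1738 bp upstream of ceh-5, a Vax relative, at rank 653 (562 in replicate 1 and 846 in replicate 2), without CCAAT. This summit lay in the 3′ UTR of another gene, eat-16. Weaker summits given to ceh-17 (rank 4965), ceh-51 (5549) and ceh-38 (5869) lay in introns of col-52, emb-4 and tra-2. ceh-16, the engrailed relative of the seam cells, had 3 boxes at a summit 1732 bp upstream at rank 963 (1178 in replicate 1 and 837 in replicate 2). cog-1, an Nkx6 relative of gustatory neurons and the vulva, had the extended form at 5791 bp upstream at rank 1470 (1413 and 1673). ceh-20, a Pbx relative, had a summit 744 bp upstream at rank 1531 (1675 and 1495), and the ONECUT gene ceh-48 one 2206 bp upstream at rank 1729 (1862 and 1356), both without CCAAT. ceh-62 had 3 boxes, each in the extended form, 661 bp upstream at rank 2856 (3136 and 3050). Windows with 3 boxes are shown for ceh-62 and for ceh-43 at 3557 bp, both chosen after the values were seen. The 100 bp on either side of each of these summits shared at least 20 bp with another peak.
ceh-62 (chrII:10805026-10805126, plus strand): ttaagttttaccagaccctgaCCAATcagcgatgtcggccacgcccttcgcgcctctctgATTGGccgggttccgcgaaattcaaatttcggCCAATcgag
ceh-43 (chrIII:4453450-4453550, minus strand): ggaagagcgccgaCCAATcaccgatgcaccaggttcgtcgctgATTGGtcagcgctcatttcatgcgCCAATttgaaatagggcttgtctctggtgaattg

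With every route counted, 44 of the 77 homeobox genes (57.1%) had an IDR summit, be it in the promoter window, inside the gene or nearest to their start, against 28.3% of all genes, and 33 had none. Of the 55 without a promoter peak, 13 had a region of the relaxed pooled list in the window. With or without an IDR peak, such a region stood in the window of 45.5% of the members and 30.1% of all genes. Neither a promoter peak nor one inside the gene was found for 20 of the 25 unassigned genes and 11 of the 15 NK-like genes. The same held for 5 of the 12 paired or paired-like genes (alr-1, ceh-10, ceh-17, ceh-36 and unc-4). These class counts have no share of all genes beside them. By chromosome, promoter peaks stood at 6 of 13 members on V, where 9.79% of all genes had one, and at 5 of 23 on X, where 13.9% did. On II the members had 2 of 15, against 14.2% of all genes, on III 2 of 10 against 24.1%, on IV 2 of 6 against 14.4%, and on I 5 of 10 against 22.8%.

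Of 21 other homeobox genes that the naming rule leaves out, 4 had a promoter peak, against 15.6% of all genes, and each of the 4 had CCAAT within 50 bp. These were the Iroquois gene irx-1 (rank 167, 322 bp upstream), dve-1 (516), the Hox gene egl-5 (1541) and the Hox gene lin-39 (3312). An IDR summit lay inside 9 of the 21, against 8.31% of all genes, led by the Meis relative unc-62 (rank 31), lin-39 (71) and the Hox gene mab-5 (274). The summit inside egl-5 was its promoter summit. For these 21 genes, gene length was not taken into account and summits in promoter windows were not removed. Among the 4 NF-Y subunit genes, nfyc-1 had a promoter peak (rank 2530, without CCAAT) and nfya-1, nfya-2 and nfyb-1 had none. The member nearest to nfya-1 was ttx-3, 177.5 kb away.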

How the data were processed

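The 2 libraries are biological replicates of 1 group, taken from the labels. Per the deposited file descriptions, relaxed regions were called for each replicate and for both together against a control, and the IDR list was derived from them. Neither the aligner nor the peak caller with its settings is given in the sources used here, and depth is unknown. The signal of each region is the authors' own value in an unstated scale, so it was used for ranks and ratios within a list. The −log10 q value deposited by the authors has a ceiling at which every IDR peak stands, so it ranked nothing and set no stricter threshold. Lists for ce10 were not used.

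Genes came from Ensembl release 115 on WBcel235. Where annotations overlapped, a summit was assigned to exons before introns, and to protein-coding genes before noncoding ones. Replicate support means an overlap of at least 1 bp with a region ranked within the first 6932 of that replicate. A window shared sequence when 20 bp within 100 bp of its summit recurred at another IDR peak. Motif counts refer to the strongest promoter summit unless all genes are the base. There was no test. Members, classes and lists were chosen with earlier results of these data known. Members with a promoter or inside-gene peak were named by rule, the 10 strongest and those with CCAAT with values. The assignment and motif functions were tested on simulated data. Alternatives varied the window, the start, the peak set, the motif distance and the overlap, and left out each replicate. Tables were made with pandas 2.3.3 and numpy 2.4.6 under Python 3.11.15, intervals with scipy 1.17.1, and plots with matplotlib 3.10.9.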

Additional observations from a re-analysis of the deposited data

How the results depend on the processing

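Of the 77 homeobox genes, 22 had a promoter peak, and this count ranged from 15 with the 3466 strongest IDR peaks (9.77% of all genes) to 27 with the window reaching 1000 bp upstream (19.4%). It was 42 with the nearest start (24.3% of all genes), which was chosen after seeing the data. Using the strongest 6932 regions of one replicate gave 25 genes without replicate 1 (15.9% of all genes) and 21 without replicate 2 (15.5%). Without peaks that share sequence, 20 remained (11.5% of all genes). Without genes whose window overlaps another gene's, 20 of 72 members remained, against 11.0% of 15916 genes. The count with CCAAT, 13 (2.93% of all genes), became 7 with the whole box within 25 bp of the summit (1.61%). It became 28 with the nearest start (8.03%). The extended form, at 2 genes (0.441% of all genes), was at 4 with the window reaching 1000 bp upstream (0.831%). It was at 1 when the window was narrowed to 200 bp before and 100 bp after the start (0.19%). It was also at 1 with the 3466 strongest peaks (0.295%) and at 1 within 25 bp (0.3%). With the nearest start it was at 10 (3.26%). The 16 genes with a peak inside (8.31% of all genes) became 10 without summits in a promoter window (6.81%). The 20 with support in both replicates became 13 when each interval had to overlap by at least 50% of its length. For all genes with a promoter peak, that support fell from 87.4% to 69.1%. With the starts of all transcripts, pal-1 and ttx-1 gained a promoter peak and the strongest one of vab-3 ranked 348 in place of 6118. The change for vab-3 rests on a summit at the outermost base of the 500-bp upstream limit. Leaving out replicate 1 dropped vab-3 and added ceh-10, ceh-31, ceh-8 and ceh-88, and leaving out replicate 2 dropped ceh-74. No paired analysis was possible because there is 1 group and no test. Counts this small move by a large factor with 1 gene, and the depth behind each peak is unknown.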
